A study of Oryzias latipes with 12 samples.

Results

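Oxidative phosphorylation genes were described complex by complex in the medaka (Oryzias latipes) brain. The members were the genes whose symbol begins with nduf (complex I), sdha to sdhd or sdhaf (complex II), or atp5 (complex V). There were 61 such genes among 26663 in the table, made up of 41 for complex I, 6 for complex II and 14 for complex V. The symbols sdha, sdhb, ndufs8 and atp5f1a were not among them, so these subunits were not analysed here. Complex II was thus covered by 2 membrane anchors and 4 assembly factors. The rule also asked for uqcr and cox4 to cox8 genes, and 0 genes carried such symbols, so complexes III and IV were not analysed here. No gene in the table lay on the mitochondrial chromosome, and the subunits encoded there were not analysed here. A member had to reach 1 TPM (an abundance scaled by transcript length and by the library total) in at least 3 libraries, and all 61 did.

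Polyadenylated RNA was sequenced from tissue holding the ventral telencephalon, the hypothalamus and the pituitary. The 4 groups, of 3 libraries each, were wild type under short days, wild type on long days, phod1 knockout under short days and phod1 knockout on long days. The knockout is written pd1 in the sample labels. Fish on long days were taken 12 days after their move from short days, fish under short days before it, and all at 12:00. Every photoperiod contrast below thus also sets libraries taken after the move against libraries taken before it. No short-day library was taken after the move. The separate parts of the light schedule, the move and the elapsed time in the photoperiod differences were therefore not tested. The labels do not state the age and sex of the fish, the number of fish per library or the number of knockout lines, so the p-values measure the spread between these libraries, which may be partly technical. The knocked-out gene was not analysed here and gives no check of the genotype labels.

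Mitochondria make ATP by passing electrons from nutrients along membrane complexes that pump protons, and by letting the protons flow back through ATP synthase. Complex I takes electrons from NADH with its matrix arm and pumps protons with its membrane arm. Complex II takes them from succinate and pumps none, and complex V is the ATP synthase, with a catalytic F1 head, a rotor and a peripheral stalk. Assembly factors help to build a complex and are not part of the finished enzyme. Neurons spend much of this ATP on ion gradients and synaptic transmission.

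Most members were highly expressed in this tissue. Mean TPM over the 12 libraries had a median of 648 among the 14 complex V genes, 246 among the 34 complex I subunits, 125 among the 6 complex II genes (4 of them assembly factors) and 27.1 among the 11 assembly factors of complexes I and II. The median over the 18218 tested genes was 17.5. In complex V, atp5f1b, the catalytic beta subunit, was highest at a mean of 1093 TPM. The other F1 members were atp5f1e at 1065, atp5f1c at 602 and atp5f1d at 389, and the 5 members of the membrane part lay between 654 and 962. The 4 peripheral stalk genes lay between 475 and 642. The lowest complex V gene was atp5s, coupling factor B, at 29.8 TPM.

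Among complex I subunits the highest was ndufa2, a thioredoxin-like accessory subunit of the matrix arm, at a mean of 648. Among the 6 members that are core subunits of the matrix arm, 5 lay between 121 (ndufv2) and 318 (ndufs3). The remaining one, ndufs1, which carries electrons from the flavin site through its iron-sulfur clusters, had a mean of 8.29 and was the lowest of all 61 members. Whether this low level reflects the gene model of ndufs1 was not tested, and this limit also holds for its differences below. The next lowest was ndufv3, an accessory subunit of the NADH-binding module, at 10.6. In complex II the membrane anchors sdhc and sdhd had means of 130 and 120, while sdhaf2 and sdhaf4, which help to mature the flavin-bearing catalytic subunit, stood at 130 and 133.

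**Figure D1:**
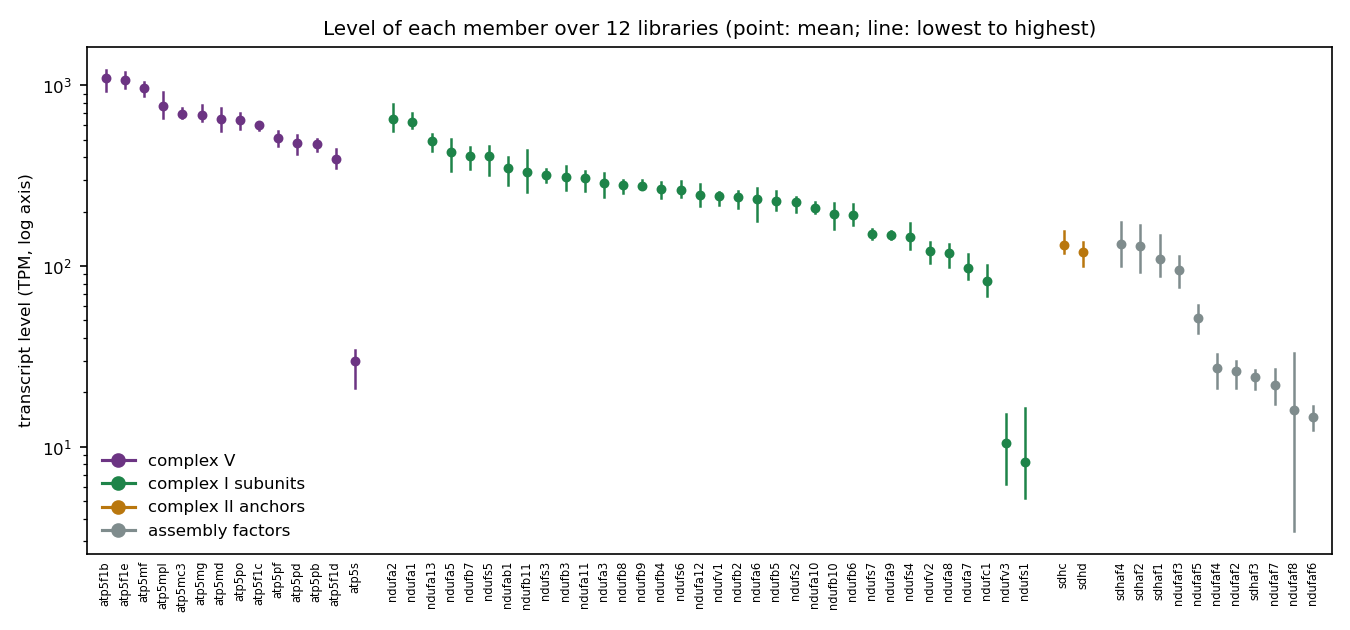
Level of each of the 61 members in TPM on a log axis, grouped as complex V, complex I subunits, complex II anchors and assembly factors; points are means over 12 libraries and lines run from the lowest to the highest library. Most lines are short, ndufs1 and ndufv3 lie far below the other complex I subunits at means of 8.29 and 10.6, and ndufaf8 has the longest line, from 3.44 to 33.0.

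The libraries differed little in most members. The highest library was a median of 1.33 times the lowest, against 1.58 over all tested genes and 1.43 over the other tested genes with a mean of at least 10 TPM. The ratio was under 1.5 for 49 of 61 members (80.3%), for 41.3% of all tested genes and for 60.6% of those other genes, whose median level of 31.9 TPM was below the 245 of the members. By class it was under 1.5 for 44 of the 50 subunits (88.0%), counting atp5s, but for 5 of 11 assembly factors (45.5%). It was 2 or more for 3 members, ndufaf8 at 9.59, ndufs1 at 3.14 and ndufv3 at 2.45. These ratios were set as limits after the values were seen.

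Together the 61 members took between 1.75% and 2.00% of all TPM in a library. The group means were 1.84% ± 0.041 (SD, n = 3) in wild type under short days, 1.90% ± 0.13 in wild type on long days, 1.87% ± 0.025 in the knockout under short days and 1.92% ± 0.025 in the knockout on long days. Both the lowest and the highest library belonged to wild type on long days, replicate 15 at 1.75% and replicate 13 at 2.00%, so that group covered the range of all others. In replicate 15 only 17 members stood above their own mean over the 12 libraries, against 42 in knockout replicate 16 on long days. Of all tested genes, 43.7% and 48.0% stood above their own mean in these 2 libraries. Correlations of log2(TPM + 1) between libraries lay between 0.971 and 0.980 inside a group and between 0.957 and 0.979 across groups.

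**Figure D2:**
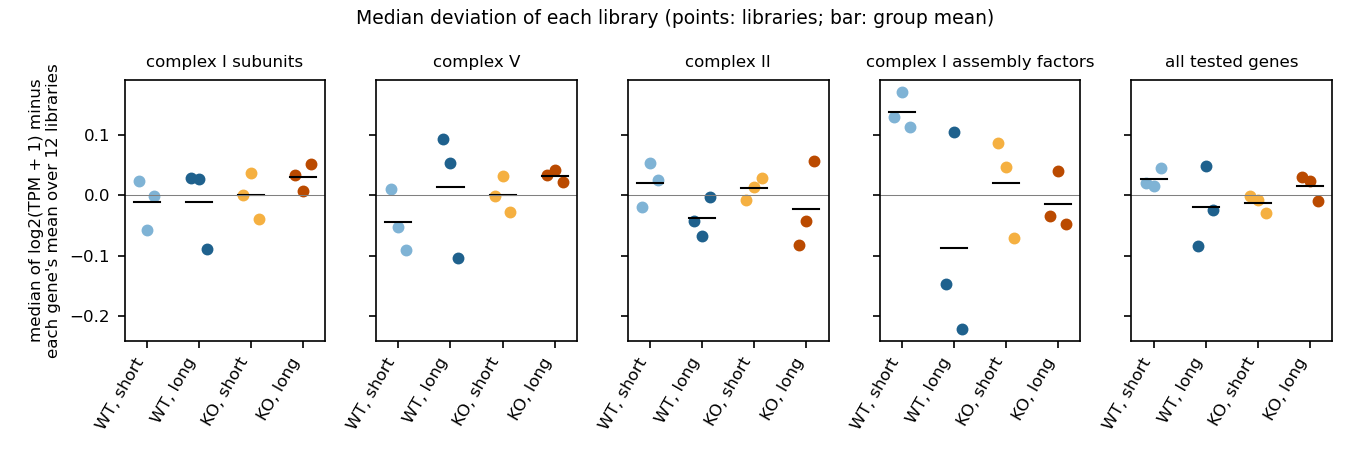
Median deviation of each library from each gene's mean over 12 libraries, in log2(TPM + 1), for complex I subunits, complex V, complex II, complex I assembly factors and all tested genes; points are libraries, bars are group means and WT and KO are wild type and knockout. The 3 wild-type libraries under short days lie between 0.11 and 0.17 for complex I assembly factors, while wild type on long days runs from -0.22 to 0.11, and the other sets stay within about 0.10 of 0.

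The tissue label was checked with marker genes. The neuronal gene snap25 had a mean of 2474 TPM, pituitary pomc 4376, hypothalamic oxt 350, glial fabp7 1923 and oligodendrocyte mag 128. Summed muscle markers stayed between 0.6 and 2.1 TPM and retinal markers between 0 and 0.6, and pituitary prl was listed at 0.35 or less in every library. Lower transcript levels in such a bulk sample may mean fewer cells of a type or less RNA per cell, which cannot be told apart.

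Differences were tested with limma on log2(TPM + 1) over all 18218 genes, and a gene was called at an adjusted p under 0.05. Of the 61 members, 4 were called in any of 8 comparisons and 57 in none. Of all tested genes 5.82% were called in at least 1 of the 8, so the members' share was near that of all genes. The comparisons share libraries: both genotype contrasts and both photoperiod contrasts use the same 12, and the pooled contrasts average them.

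**Figure D3:**
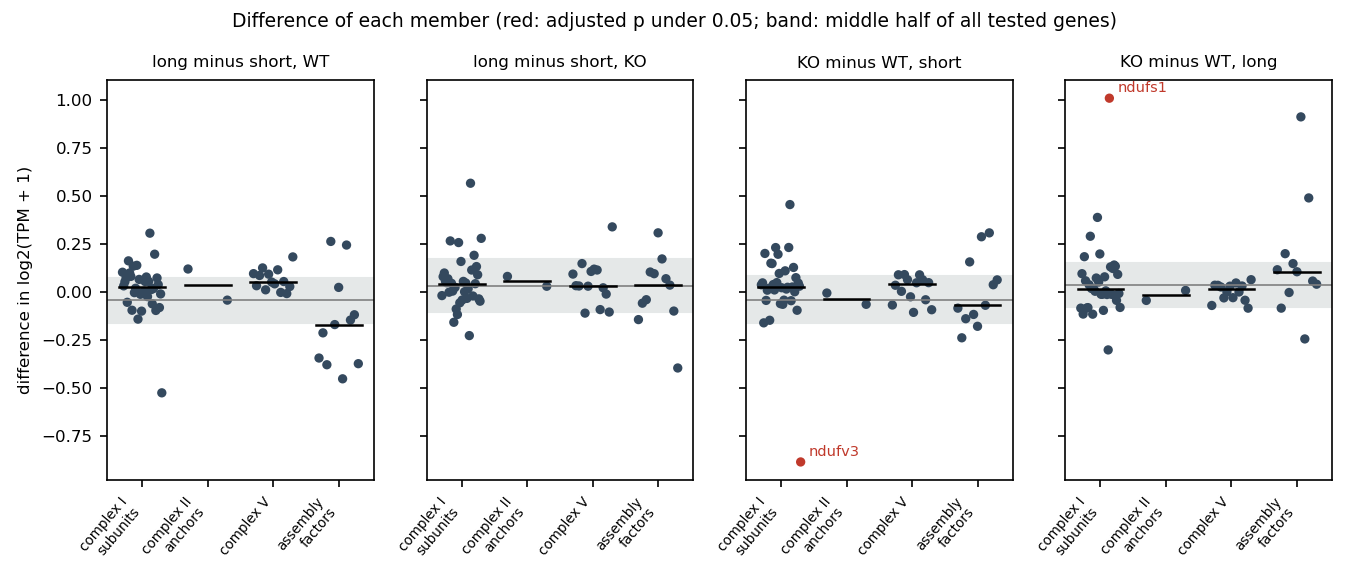
Difference of each member in log2(TPM + 1) for the 4 contrasts between single groups; points are genes, black bars are medians of each class, the grey line and band are the median and middle 50% of all tested genes, and red marks an adjusted p under 0.05. Nearly all members sit within 0.5 of 0, ndufv3 stands at -0.89 in the knockout under short days and ndufs1 at 1.01 in the knockout on long days.

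Long days were compared with short days in wild type first. No member was called, with 0.192% of all tested genes called, and 6 members (9.84%) had an unadjusted p under 0.05, against 11.6% of all tested genes. Of the 50 genes other than assembly factors, 34 had higher means on long days with a median difference of 0.04, while 8 of the 11 assembly factors had lower means with a median of -0.17. Over all tested genes 11126 of 18218 had lower means, and the median was -0.05. For all 61 members the median was 0.03, which became -0.02 with library quality weights and 0.08 with median-ratio scaling, so no direction is given for the members as a whole. The 95% intervals of 53 members (86.9%) lay within 0.5 of 0 in log2, against 58.5% of all tested genes. This bound was chosen after the values were seen. For these 53 members, differences larger than 0.5 were outside the interval. The members' median level of 245 TPM was above the 17.5 of all tested genes, and its part in these shares was not tested.

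In wild type, complex V genes had higher means in 12 of 14 cases with a median of 0.05, and this median was -0.02 with library quality weights, 0.01 without wild-type replicate 14 on long days and 0.13 without replicate 15. The 4 F1 members and the 5 members of the membrane part all had higher means on long days, none of them called. Complex I subunits split 21 higher and 13 lower with a median of 0.02. The assembly factors of complex I split 2 higher and 5 lower with a median of -0.21, and this median stayed between -0.28 and -0.11 as each library was left out.

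The members with the smallest p in wild type are given as not passing. Transcripts of ndufaf2, a late-acting complex I assembly factor, had 28.6, 29.5 and 30.0 TPM under short days and 24.3, 23.4 and 21.1 on long days. These groups did not overlap, and the log2 difference was -0.35 (SE 0.08, adjusted p = 0.129). How many of all tested genes had groups without overlap was not counted, here or for the members below. The flavin-subunit assembly factor sdhaf4 differed by -0.37 (SE 0.12, adjusted p = 0.251). In the other direction, ndufc1, an accessory subunit of the membrane arm, differed by 0.31 (SE 0.10, adjusted p = 0.247), and ndufaf5, which hydroxylates the core subunit NDUFS7 in human cells, by 0.26 (SE 0.09, adjusted p = 0.280).

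In the knockout, long days against short days also gave 0 called members, with 1.76% of all tested genes called, and 5 members (8.20%) had an unadjusted p under 0.05, against 15.9% of all tested genes. The members' median was 0.03, as was that of all tested genes. Complex I assembly factors had a median of 0.09 here, with 4 of 7 higher, and the median was 0.02 without knockout replicate 16 on long days and 0.04 without knockout replicate 1 under short days. Factor B, atp5s, had 27.2, 30.4 and 21.3 TPM under short days and 33.5, 31.6 and 34.4 on long days, with no overlap. Its log2 difference was 0.34 (SE 0.12, adjusted p = 0.203). The share of all tested genes without such overlap was not counted. For sdhaf4 the difference was -0.40 (SE 0.12, adjusted p = 0.131), for ndufc1 -0.23 (SE 0.10, adjusted p = 0.280) and for ndufs1 0.57 (SE 0.17, adjusted p = 0.122).

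With both genotypes averaged, 2 of 61 members were called, both lower on long days and both assembly factors, with 3.08% of all tested genes called. The 50 other members gave 0 calls, and 6 of them (12%) had an unadjusted p under 0.05, against 18.8% of all tested genes. Median differences were 0.04 over the 50 other members, -0.11 over the 11 assembly factors and -0.01 over all tested genes.

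The sdhaf4 transcript (Gene ID 101160834) had 129, 152 and 160 TPM in wild type and 175, 151 and 136 in the knockout under short days. On long days it had 99.5, 125 and 116 in wild type and 106, 114 and 130 in the knockout. Within each genotype the long-day libraries were below the short-day ones, and over both genotypes only knockout replicate 16 on long days, at 130.2, exceeded the lowest short-day library at 129.4. The gene fell by 0.39 on the log2 scale (SE 0.08, adjusted p = 0.0355). The call was lost in 8 of 12 fits that left out a library, namely wild-type replicates 2 and 3 and knockout replicates 1 and 3 under short days, and wild-type replicates 13 and 15 and knockout replicates 13 and 14 on long days. The adjusted p then reached up to 0.0871.

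The ndufaf2 transcript (Gene ID 101166054) added 29.3, 28.9 and 24.8 TPM in the knockout under short days and 24.95, 24.5 and 25.2 on long days to the wild-type values above. On long days the 3 knockout libraries lay just above the 3 wild-type ones. Knockout replicate 4 under short days, at 24.8, lay among the long-day libraries, and the other short-day libraries stood above all long-day ones. The gene fell by 0.25 (SE 0.06, adjusted p = 0.0463), a call lost with any library left out except that replicate 4, with an adjusted p of up to 0.109. Some marker genes differed with photoperiod over both genotypes. Of 5 tested pituitary markers, lhb, cga and fshb were called higher, while pomc (0.11, adjusted p = 0.915) and pou1f1 (-0.01, adjusted p = 0.983) were not called. The summed 6 pituitary markers ran from 2067 to 9231 TPM under short days and from 4614 to 9462 on long days. Most of this sum was pomc, which alone ran from 1602 to 8537 TPM over the 12 libraries. Of 4 tested radial glia markers, cyp19b and s100b were called higher, while fabp7 (-0.05) and slc1a2 (-0.03) were not called. The radial glia sum ran from 3757 to 4279 TPM under short days and from 3971 to 5258 on long days. Of 6 tested neuronal markers 1, gad1, was called lower by 0.27 (adjusted p = 0.0454). The part of these markers in the lower sdhaf4 and ndufaf2 levels was not tested.

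The knockout was then compared with wild type under short days. A single member, ndufv3, was called, with 0.664% of all tested genes called. The members' median was 0.02 against -0.04 over all tested genes. The intervals of 56 members (91.8%) lay within 0.5 of 0, against 57.6% of all tested genes. Complex I assembly factors had a median of -0.12 with 5 of 7 lower, and complex V genes 0.04 with 9 of 14 higher. The complex V median was 0.0023 without wild-type replicate 3 under short days and was also below 0.01 without knockout replicate 3.

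The ndufv3 transcript (Gene ID 110014890) had 14.6, 15.2 and 14.9 TPM in wild type and 10.6, 6.21 and 6.55 in the knockout under short days. On long days it had 9.65, 8.95 and 11.6 in wild type and 9.71, 10.6 and 8.07 in the knockout. The 3 wild-type libraries under short days stood above all 9 others, and the genotypes overlapped on long days. Under short days the gene fell in the knockout by 0.89 (SE 0.18, adjusted p = 0.0499), to 0.541 of the wild-type level on the TPM + 1 scale. On long days the difference was -0.08 (SE 0.18, adjusted p = 0.912), and the test of the change in difference gave 0.80 (SE 0.25, adjusted p = 0.470). Leaving out any library but knockout replicate 1 under short days lost the call, with an adjusted p of up to 0.167, and 8 of 10 other settings lost it too.

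On long days a single member, ndufs1, was called higher in the knockout, with 0.642% of all tested genes called. Complex I assembly factors had a median of 0.11 with 5 of 7 higher, above the 0.04 of all tested genes. The members' median of 0.02 became -0.02 with median-ratio scaling.

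The ndufs1 transcript (Gene ID 101164519) had 6.46, 5.75 and 5.29 TPM in wild type under short days and 5.23, 6.99 and 5.51 in wild type on long days. The knockout had 9.02, 9.03 and 7.10 under short days and 12.0, 10.7 and 16.4 on long days. All 6 knockout libraries were above all 6 wild-type ones, and the lowest knockout library, at 7.10, lay just over the highest wild-type library, at 6.99. On long days ndufs1 rose in the knockout by 1.01 (SE 0.17, 95% interval 0.64 to 1.37, adjusted p = 0.0262), or 2.01 times on the TPM + 1 scale. Under short days the difference was 0.45 (SE 0.17, adjusted p = 0.275), and the test between the photoperiods gave 0.55 (SE 0.24, adjusted p = 0.587).

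The long-day call was lost without wild-type replicate 13 (adjusted p = 0.0949) or 15 (0.106), and without knockout replicate 13 (0.0518) or 16 (0.0719). With both photoperiods averaged, ndufs1 rose by 0.73 (SE 0.12, adjusted p = 0.0104), the only member called, with 2.4% of all tested genes called. That call held with each of 12 libraries left out, the difference staying between 0.65 and 0.79. In the test for any difference among the 4 groups ndufs1 was again the only member called (adjusted p = 0.0167), with 3.13% of all tested genes called, and 11 members (18.0%) had an unadjusted p under 0.05, against 20.2% of all tested genes.

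The 5 other matrix-arm core subunits among the members gave 0 calls by limma in the 7 contrasts. Of them 0 had an unadjusted p under 0.05, and their smallest adjusted p was 0.355. In any of the 8 comparisons, which add the test among the 4 groups to the 7 contrasts, 5.82% of all tested genes were called. With that share, 5 genes are too few for 0 calls to stand apart from it. An unadjusted p under 0.05 was found for 7.93% to 18.8% of all tested genes in single contrasts. Their share in any of the 7 was not counted. Some marker genes of the hypothalamus differed with genotype, and 3 of 6 listed markers were tested. Over both photoperiods oxt and hcrt were called lower in the knockout, while trh (-0.17, adjusted p = 0.263) was not called. Summed oxt, hcrt and trh ran from 552 to 849 TPM in wild type and from 253 to 402 in the knockout under short days. On long days the sum ran from 410 to 542 in wild type and from 160 to 323 in the knockout. In the same comparison pou1f1, 1 of 5 tested pituitary markers, was called higher by 0.46 (adjusted p = 0.0491), and s100b, 1 of 4 tested radial glia markers, was called lower by 0.33 (adjusted p = 0.0316). The pituitary sum, mostly pomc, ran from 3492 to 9462 TPM in wild type and from 2067 to 9231 in the knockout. The radial glia sum ran from 3873 to 5258 in wild type and from 3757 to 4609 in the knockout. The part of these markers in the ndufs1 difference was not tested.

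**Figure D4:**
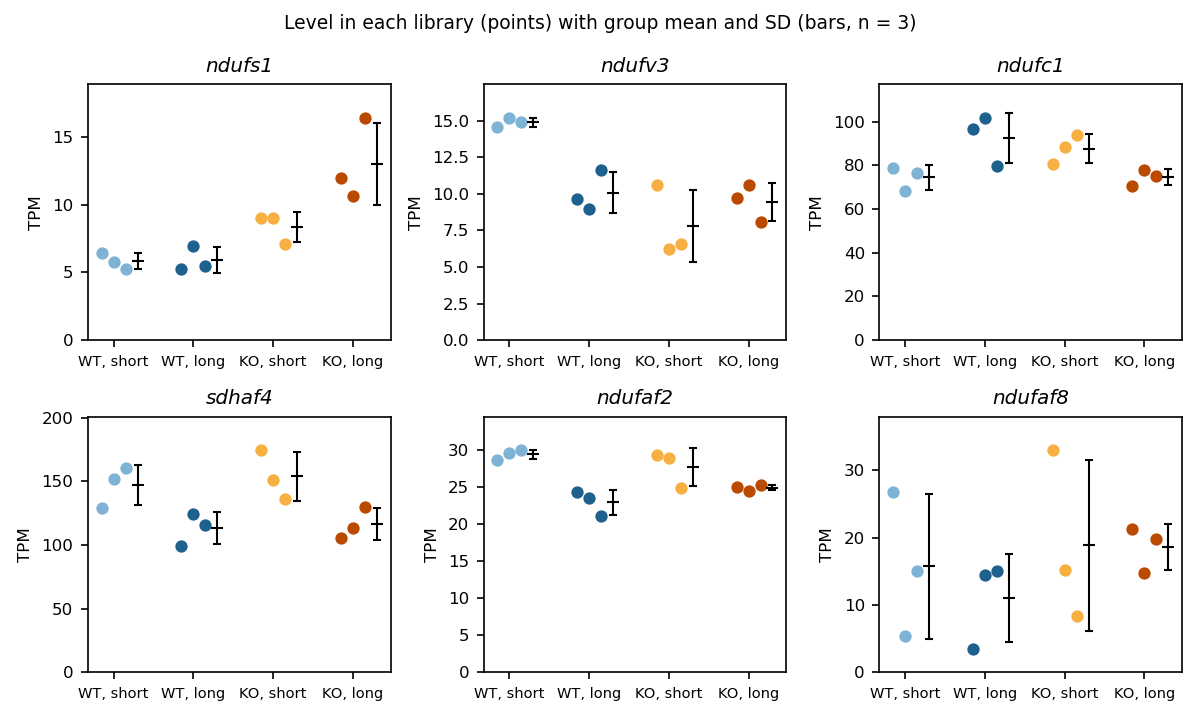
TPM in each library of ndufs1, ndufv3, ndufc1, sdhaf4, ndufaf2 and ndufaf8 in the 4 groups; points are libraries and bars are the group mean and SD of 3 libraries. The knockout libraries of ndufs1 lie between 7.10 and 16.4 above all wild-type ones, wild type under short days stands alone for ndufv3 at 14.6 to 15.2, and ndufaf8 scatters from 5.36 to 33.0 within short-day groups.

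Several members missed the threshold in the pooled genotype comparison and are named after their values were seen. For ndufa6, an LYR-motif accessory subunit, the 6 knockout libraries lay between 241 and 271 TPM. The 6 wild-type ones lay between 177 and 234, with no overlap. How many of all tested genes separated in this way was not counted. The log2 difference of ndufa6 was 0.22 (SE 0.06, adjusted p = 0.116). For ndufv3 it was -0.48 (SE 0.12, adjusted p = 0.0698), for sdhaf2 0.40 (SE 0.12, adjusted p = 0.134) and for ndufa11, an accessory subunit of the membrane arm, -0.14 (SE 0.04, adjusted p = 0.105). Over all 61 members the pooled median was 0.01 and that of all tested genes -0.00.

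The photoperiod difference in the knockout minus that in wild type tested whether the response depended on genotype. No member was called, with 0.00549% of all tested genes (1 gene) called, and 3 members (4.92%) had an unadjusted p under 0.05, against 7.93% of all tested genes. Complex I assembly factors had a median of 0.26 with 6 of 7 higher, against 0.08 over all tested genes, and 0.19 with median-ratio scaling. The members' own median was 0.00, and -0.08 with that scaling, under which all tested genes had 0.00.

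In ndufc1 the photoperiods were ordered oppositely. Wild type had 78.9, 68.2 and 76.6 TPM under short days and 96.6, 102 and 79.7 on long days. The knockout had 80.7, 88.4 and 93.9 under short days and 70.5, 77.9 and 75.4 on long days. All long-day libraries were above the short-day ones in wild type and below them in the knockout, and the difference between the responses was -0.53 (SE 0.14, adjusted p = 0.343). Subunit c of the rotor ring, atp5mc3, differed by -0.12 (SE 0.07, adjusted p = 0.703).

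Other genes of the pathway came from lists chosen apart from the rule. Of all tested genes, 3.08% were called for photoperiod over both genotypes and 1.76% for photoperiod in the knockout. For genotype, 2.4% were called over both photoperiods and 0.664% under short days. Of 21 tested assembly factors not covered by the rule, 1 was called lower on long days over both genotypes, cmc2, a complex IV factor, by 0.46 (adjusted p = 0.0366). Called higher on long days in the knockout were nubpl, which delivers iron-sulfur clusters to complex I, by 0.46 (adjusted p = 0.0403) and tmem242, an ATP synthase factor, by 0.42 (adjusted p = 0.0329). In wild type nubpl differed by 0.05 (adjusted p = 0.895) and tmem242 by -0.05 (adjusted p = 0.859). The change in difference between genotypes was not called for nubpl (0.41, adjusted p = 0.479) or tmem242 (0.47, adjusted p = 0.327). A further ATP synthase factor, tmem70, was lower in the knockout over both photoperiods by 0.41 (adjusted p = 0.0158), from group means of 17.5 ± 1.2 and 15.3 ± 1.1 TPM (SD, n = 3) in wild type to 13.9 ± 1.2 and 10.5 ± 0.92 under short and long days.

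Of 11 ubiquinone synthesis genes, coq6 (0.26, adjusted p = 0.0352) and coq9 (0.31, adjusted p = 0.0492) rose on long days over both genotypes. In the knockout alone coq6 was also called higher on long days, by 0.38 (adjusted p = 0.0437). Of 13 genes for mitochondrial transcription and biogenesis, the coactivator pprc1 fell on long days over both genotypes by 0.68 (adjusted p = 0.00496). In the knockout alone pprc1 fell by 0.84 (adjusted p = 0.0137). A subunit of a factor that binds promoters of respiratory genes, gabpa, was lower in the knockout than in wild type under short days by 0.40 (adjusted p = 0.0389). In the knockout gabpa was also called higher on long days by 0.35 (adjusted p = 0.0413). Both of these comparisons use the same knockout libraries under short days. The genotype difference of gabpa on long days was -0.02 (adjusted p = 0.949). The test of the change in difference gave 0.38 (adjusted p = 0.400). Among 7 tested genes of uncoupling and alternative electron entry, etfa fell on long days over both genotypes by 0.18 (adjusted p = 0.0277). Of 13 genes in the tricarboxylic acid cycle 0 were called by limma in the 7 contrasts. Calls in any of the 8 comparisons covered 5.82% of all tested genes, and 13 genes are too few for 0 calls to stand apart from that share. In at least 1 of the 7 contrasts, 4 of the 13 had an unadjusted p under 0.05. The same share over all tested genes was not counted. These genes outside the rule were not refitted under the alternative settings.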

How the data were processed

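RNA was measured in 12 medaka brain libraries. The authors deposited TPM per gene, with sums near 1000000 per library. STAR 2.7.9a and RSEM 1.3.1 appear in the submitters' processing notes with no role stated, and the genome build is not given in the sources used here. Read depth is unknown, so no counting error is given. All 26663 Gene IDs matched the reference table of ASM223467v1, which gave symbols and gene order.

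Log2(TPM + 1) of the 18218 genes with at least 1 TPM in at least 3 libraries entered 1 limma fit (version 3.58.1, R 4.3.3) of 4 group means with a trend in the prior variance. Tests were two-sided, adjusted by Benjamini-Hochberg over all tested genes within each of 7 contrasts and an F test among groups. The pseudocount of 1 understates changes of low genes. The fit was tested on simulated data, with changes added to wild type on long days. It recovered 77 of 100 changes of 1 in log2 and 91 of 100 changes of 2, with 9 false calls. The changed genes were picked from all tested genes, and the noise was drawn independently for each gene and library. These rates therefore do not describe the members, whose median level was higher, or shifts shared by a whole library. Smaller changes were not simulated, so how often the fit calls them is not known. Reads shared by near-identical copies may be divided by the quantification.

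Members and lists were chosen with earlier results of these data known, and the classes of subunits were assigned after symbols and mean levels were seen. Members were named when called, or when among the smallest p values per direction in a contrast without calls. The highest and the lowest of a complex were also named. All others were named after their values were seen, such as ndufaf8 for its spread between libraries. Alternatives changed the pseudocount (0.1), filter, scaling, abundant genes, trend, library weights, groups fitted and replicate block, and left out each library.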

Additional observations from a re-analysis of the deposited data

Results flagged for a closer look

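The accessory subunit ndufc1 was flagged because its photoperiod difference ran in opposite directions in the 2 genotypes, with no overlap between libraries in either. How common this pattern was among all tested genes was not counted. The difference of the responses was -0.5335 in log2 (SE 0.14), with an unadjusted p of 0.00232 and an adjusted p of 0.343 by limma over all tested genes. The same value describes the genotype difference, which was positive under short days (0.23) and negative on long days (-0.30). Over 21 alternatives it stayed between -0.64 and -0.41 and was not called in any of them.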

How the results depend on the processing

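No called result reversed. Of 740 recomputed class medians, 30 moved by more than the spread between libraries. Of 357 recomputed values of named members, 51 lost a call and 1 gained one, and only members called in the report could lose one. The call was kept in 16 of 22 settings for ndufs1 on long days and in 20 of 21 over both photoperiods. It was kept in 3 of 22 for ndufv3, 10 of 20 for sdhaf4 and 5 of 20 for ndufaf2. Counts of called members were unstable where they rested on 1 or 2 genes. For long against short days over both genotypes, 2 calls became 0 with no filter on TPM or no variance trend, and 1 with median-ratio scaling or with the replicate block estimated by duplicateCorrelation. In the knockout under short days the 1 call became 0 with the pseudocount of 0.1, no filter, median-ratio scaling, the 20 most abundant genes removed, no trend, library weights, only the groups compared, or the fixed replicate block. On long days the 1 knockout call became 2 with library weights and 0 with only the groups compared or the fixed replicate block. Over both photoperiods 1 call became 4 with library weights and 0 with the fixed replicate block. Library weights gave 1 call instead of 0 for photoperiod in wild type and 5 instead of 1 among groups. The cause was not tested. With each library left out, called members ranged from 0 to 2 (photoperiod over both genotypes), 0 to 1 (genotype under short days, and on long days), 1 to 2 (genotype over both photoperiods, and among groups) and 0 to 0 elsewhere.

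Whether the replicate numbers pair the samples was not settled. Deviations of same-numbered libraries correlated at 0.0817 and 0.0881 under short days and -0.0478 and -0.00492 on long days. Under short days these libraries correlated best with their own number, and on long days they did not. Only numbers 1 and 3 under short days and 13 and 14 on long days occurred in both genotypes. The fixed replicate block therefore draws the genotype differences from these pairs only. With the fixed replicate block ndufs1 had adjusted p = 0.478 on long days and 0.196 over both photoperiods, and ndufv3 0.441. The all-gene counts fell to 16, 30 and 5. This fit leaves little of the data to estimate the spread, so its p-values cannot decide whether these differences hold with pairing. Over all 22 settings the long-day difference of ndufs1 stayed between 0.80 and 1.13.

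Genes called over the whole table, from lowest to highest setting other than a library left out, were 1 to 292 (35 in the report) for photoperiod in wild type, 61 to 462 (321) in the knockout, 421 to 1068 (562) over both, 5 to 131 (121) and 16 to 383 (117) for genotype under short and long days, 30 to 719 (437) over both and 0 to 9 (1) for the interaction. With 1 library left out they were 10 to 37, 65 to 322, 206 to 521, 27 to 110, 40 to 160, 210 to 380 and 0 to 6 in the same order, so the shares of called genes given as background vary as well. Read depth is unknown, and 3 libraries a group set the precision.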

Other observations

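The assembly factor ndufaf8, a partner of ndufaf5 in human cells, varied more between libraries of 1 group than between groups. This gene was picked after the values were seen, for the largest spread among the 61 members. It had 26.8, 5.36 and 15.01 TPM in wild type and 33.0, 15.2 and 8.34 in the knockout under short days, and 3.44, 14.5 and 15.1 in wild type and 21.3, 14.8 and 19.8 in the knockout on long days. Its within-group SD of log2(TPM + 1) was 0.90 against a median of 0.11 over the 61 members, and its partner ndufaf5 stayed between 42.8 and 61.0 TPM. Of the other members, sdhaf2 came next with an SD of 0.25.

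The 2 called subunits, ndufs1 and ndufv3, were also the 2 with the lowest levels, at 8.29 and 10.6 TPM, and lie on the same chromosome of ASM223467v1. The members ndufa10 and atp5mc3 lie on that chromosome too and were not called. On that chromosome 39 of 663 tested genes (5.88%) were called for genotype over both photoperiods, against 2.4% of all tested genes. It was not alone in this: 1 other chromosome had 36 of 529 (6.81%) and another 45 of 772 (5.83%). Among the nearest tested neighbours, 4 of 40 for ndufs1 and 2 of 21 for ndufv3 were called in that comparison, in which ndufv3 itself was not called. For genotype under short days, where ndufv3 was called, 1 of its 21 neighbours was called. For photoperiod over both genotypes, 28 of 663 genes on the chromosome (4.22%) were called, against 3.08% of all tested genes. So were 3 of the 40 neighbours of ndufs1 and 1 of the 21 of ndufv3. This gene order was looked at after the results were seen, and its part in the ndufs1 and ndufv3 differences was not tested.

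Of 21 tested assembly factors outside the rule, 15 had lower means on long days in wild type, with a median of -0.18, against -0.17 for the 11 members and -0.05 for all tested genes, of which 11126 of 18218 were lower. No test compared these groups. In the knockout the outside factors had a median of -0.10 with 12 of 21 lower, against 0.03 for the members. In wild type 0 of these factors were called by limma, and 4 of 11 and 5 of 21 had an unadjusted p under 0.05, against 11.6% of all tested genes.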
